A study of Oryza sativa with 12 samples.

Results

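The 3 arrays of osmads1 panicles of 5-7 mm were set against the 3 arrays of osmads1 panicles of 2 mm, which together are 6 of the 12 Affymetrix rice arrays of the study. They were taken by their labelled genotype and panicle length. The other 6 arrays hold wild-type panicles, 3 at 2 mm and 3 at 5-7 mm, and serve here only to show where the osmads1 change differed from that of wild type. The labels describe panicles from rice plants grown in a paddy field without special treatment, and give 3 biological repeats a group, early flower development for the shorter and late for the longer panicles. They give no mutant allele, line, genetic background or plant age, and do not say whether a sample pooled panicles. The number of arrays limits the precision.

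A rice panicle first forms branches, then spikelets and then florets, and the organs of a floret take their identity from combinations of MADS-box transcription factors that are sorted into classes A to E. OsMADS1, an E class factor of the SEPALLATA type, acts in the determinacy of the floret meristem and in the identity of lemma and palea, the outer organs of the rice floret. The comparison asks which transcripts differ between early and late flower development when OsMADS1 is impaired. In RNA from whole panicles, fewer cells of a type and less RNA per cell cannot be told apart.

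All values are log2 probe set levels after quantile normalization of the 12 arrays together, a change is the 5-7 mm mean minus the 2 mm mean of osmads1, and its ± is the standard error of the fit. As deposited, the median of all tested probe sets was 4.10 to 4.13 in the 2 mm arrays and 4.93 to 5.00 in the 5-7 mm arrays of osmads1. Without normalization between lengths, the median change was 0.61, and it was 0.023 after quantile normalization. Replicate arrays correlated at 0.995 to 0.997 within the groups, and osmads1 arrays of different lengths at 0.968 to 0.974. Control probe sets moved with length as well. All 5 probe sets for ribosomal RNA were lower at 5-7 mm, 1 of the 18S probe sets with a change of -6.13 ± 0.19 in osmads1 and -5.96 ± 0.19 in wild type. Of 36 spiked poly(A) controls 29 were lower and 0 higher in osmads1, with a median of -0.89. In 1 pair of rice actin controls the 3′ minus the 5′ reading, a measure that grows as RNA or its labelled copies get shorter, was 5.88 ± 0.19 at 2 mm and 4.42 ± 0.28 at 5-7 mm of osmads1 (SD, n = 3). The wild-type values of that pair were 6.0 ± 0.064 and 4.44 ± 0.086. A second actin pair gave 4.51 ± 0.11 and 3.23 ± 0.36 in osmads1 and 4.99 ± 0.17 and 3.06 ± 0.037 in wild type (SD, n = 3), and there the genotypes did not overlap at 2 mm. The differences between lengths below therefore cannot be told apart from differences in RNA quality, labelling or array processing between the lengths. The difference between genotypes in this change passed for 0 of the 5 ribosomal RNA probe sets, 1 of the 36 poly(A) controls (-1.29 ± 0.20) and 1 of the 64 reporter controls.

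One of the 64 reporter controls, probe sets for sequences of no rice gene, set the osmads1 2 mm arrays apart from the rest. It read 7.34, 6.53 and 6.96 there, 2.49, 2.59 and 2.65 in the osmads1 5-7 mm arrays, 3.02, 3.24 and 3.07 in the wild-type 2 mm arrays and 2.67, 2.63 and 2.52 in the wild-type 5-7 mm arrays. The 3 osmads1 2 mm arrays were high and the other 9 arrays were low, with no overlap (change -4.36 ± 0.16 in osmads1, adjusted p = 5.21e-11 by limma over the control probe sets). The difference between genotypes for this probe set was -3.86 ± 0.23 (adjusted p = 6.20e-08 by limma over the control probe sets). The labels do not say whether the osmads1 plants of both lengths belong to 1 line. Panicle length therefore cannot be told apart here from a difference in plant material. The genotype differences below use the same osmads1 2 mm arrays and cannot be told apart from such a difference either. Of the 64 reporter controls 18 passed the test between the osmads1 lengths, 5 higher and 13 lower, and the probe set above was the single one with a change of at least 2-fold.

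Between the lengths of osmads1, 15698 of 57194 probe sets were higher at 5-7 mm (27.4%) and 13770 lower (24.1%) at a Benjamini-Hochberg adjusted p under 0.05 in limma. Of these, 1354 rose at least 2-fold (2.37% of those tested) and 1858 fell at least 2-fold (3.25%). The split depended on the scale, with 42388 higher and 3121 lower calls on the deposited values and 9448 higher and 28818 lower calls after median centring, where the median change was -0.25. Percentile ranks within an array do not depend on scaling between arrays, and the same fit on those ranks called 14490 probe sets higher and 12865 lower. Ranks give every array the same distribution, as quantile normalization does. A similar split was therefore built in, and the ranks are no independent check of the scale. With 1 probe set per gene, the one with the highest mean, 32.4% of 17905 genes were higher and 29.8% lower, and 3.23% and 5.66% were so at least 2-fold. The counts of each gene group below are to be read against these shares. Because the scale moves all genes together, the median of a group is also given relative to that of all genes, on 3 scales. Median centring shifts all changes of the deposited values by 1 constant. The relative medians of those 2 scales are therefore equal by construction, and the centred value is no further check. The plot of gene groups by share of members past 2-fold shows replication genes farthest to the higher side and NAC genes farthest to the lower side.

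**Figure D1:**
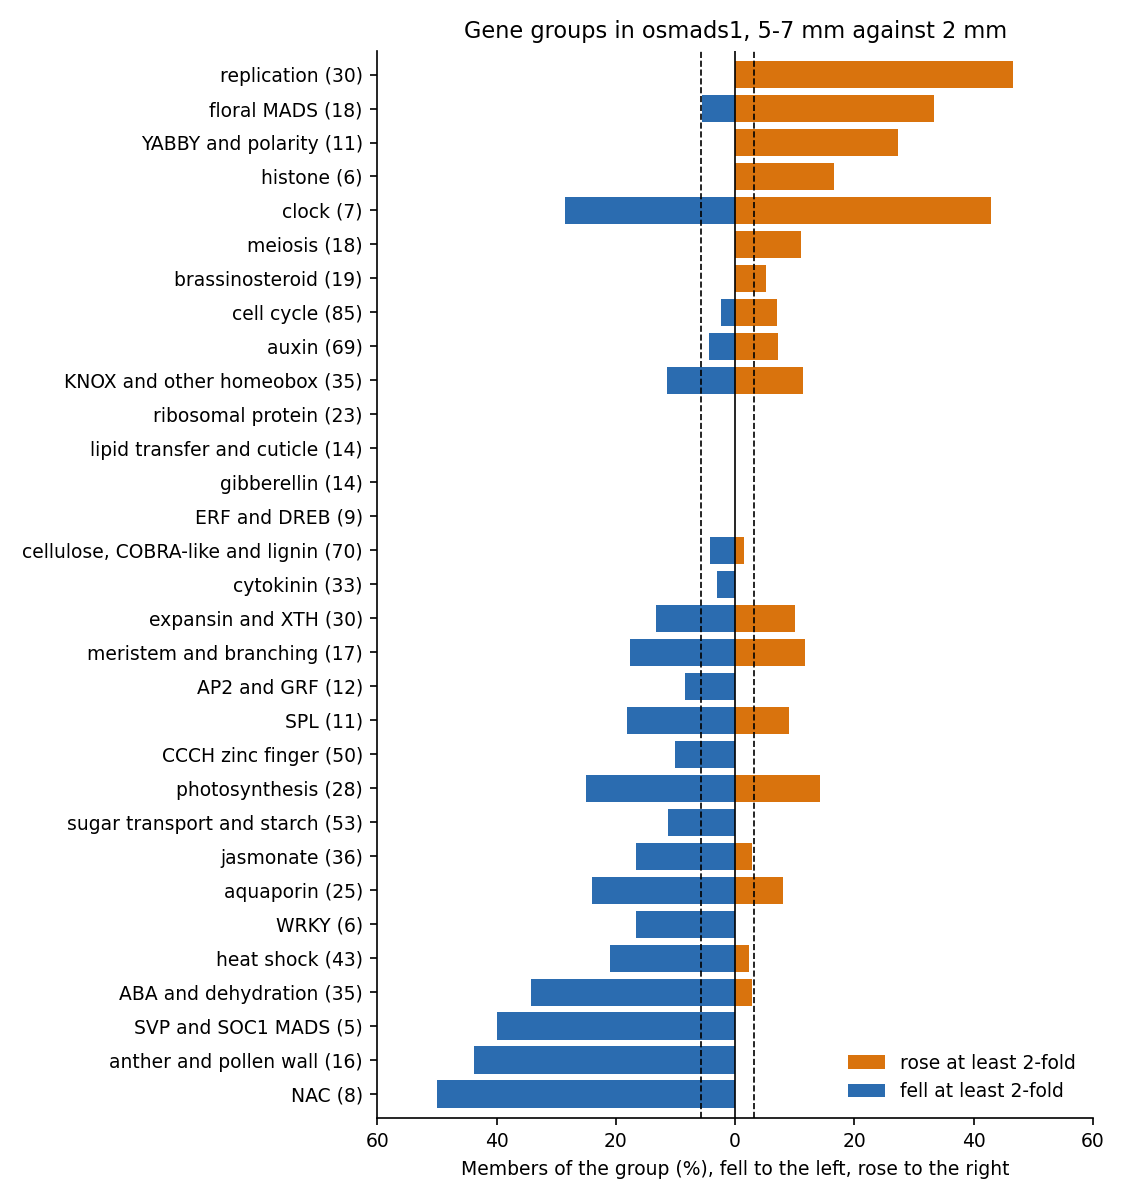
Share of the members of each gene group that rose (right, orange) or fell (left, blue) at least 2-fold with an adjusted p under 0.05 between 2 mm and 5-7 mm in osmads1, in percent, with the number of genes in brackets. The dashed lines mark the shares over all genes, 3.23% higher and 5.66% lower.

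OsMADS1 itself read 5.64, 4.68 and 5.43 in the 2 mm arrays and 4.52, 3.50 and 3.27 in the 5-7 mm arrays of osmads1. The 5-7 mm arrays were the lower ones and the groups did not overlap, with a change of -1.49 ± 0.29 (adjusted p = 0.00097). The wild-type arrays read 10.84, 11.19 and 11.16 at 2 mm and 11.35, 11.27 and 11.26 at 5-7 mm, all far above the mutant arrays. The change in osmads1 differed from that in wild type by -1.71 ± 0.41 (adjusted p = 0.00867). Panicle and floret markers were at high levels at both lengths, among them 11.72 ± 0.14 and 10.72 ± 0.0066 for OsMADS14, 11.67 ± 0.071 and 11.74 ± 0.040 for OsMADS15 and 10.92 ± 0.13 and 11.004 ± 0.28 (SD, n = 3) for RFL, the rice LEAFY gene. OsMADS13, which acts in ovule identity, stayed under 3.58, the upper quartile of the reporter controls, at both lengths in osmads1. Below that level a mean gives only a bound, and a fold against it is written as at least that size.

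Genes of floral organ identity rose as osmads1 panicles grew. Of the 18 floral MADS-box genes 12 were higher and 3 lower at 5-7 mm, 6 of the higher ones at least 2-fold, against 3.23% of all genes. Their median change was 0.53, which relative to all genes was 0.51 (0.45 on the deposited values and 0.45 after median centring). The AGL6-type gene OsMADS6, which acts with OsMADS1 in palea and floret meristem identity, read 8.18, 7.80 and 7.97 at 2 mm and 9.99, 9.98 and 10.03 at 5-7 mm. All 3 of the longer panicles were higher, and the level rose 4.03-fold (2.01 ± 0.093, adjusted p = 1.22e-08). Its relative OsMADS17 read 6.55, 6.03 and 6.40 and then 8.15, 7.95 and 8.17, again without overlap, and rose 3.4-fold. Both AGL6-type genes rose more in osmads1 than in wild type, where the changes were 0.83 ± 0.093 and 0.98 ± 0.12, and the differences between the genotypes were 1.18 ± 0.13 and 0.79 ± 0.18 (adjusted p = 3.34e-05 and 0.00589).

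Among E class genes, OsMADS7 and OsMADS8, the rice SEPALLATA3-type genes of the inner whorls, rose in osmads1. OsMADS7 read 7.08, 7.18 and 7.03 at 2 mm and 9.28, 8.60 and 9.35 at 5-7 mm, a rise of 1.98 ± 0.21 without overlap. OsMADS8 read 7.34, 7.49 and 7.38 and then 8.90, 8.35 and 8.90, a rise of 1.31 ± 0.16, also without overlap. In wild type they rose by 1.98 ± 0.21 and 1.17 ± 0.16, and the differences between the genotypes, -0.0066 ± 0.30 and 0.14 ± 0.23, did not pass (adjusted p = 0.993 and 0.742). OsMADS34, which promotes spikelet meristem identity, had a change of 0.31 ± 0.11 that passed (adjusted p = 0.0336) but did not without the first or the third 2 mm or the third 5-7 mm array (0.19, 0.32 and 0.25), and OsMADS5 did not pass (-0.24 ± 0.099, adjusted p = 0.0628).

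The 3 B class genes tested, which specify lodicules and stamens, were higher at 5-7 mm. OsMADS16, the APETALA3-type gene, read 7.64, 8.10 and 7.95 at 2 mm and 9.35, 8.70 and 9.36 at 5-7 mm. The longer panicles stood above the shorter ones in every array, a rise of 1.24 ± 0.18. OsMADS4 rose by 0.92 ± 0.15 and OsMADS2 by 0.63 ± 0.089, the PISTILLATA-type pair. The C class genes act in stamens, carpels and the ending of the floral meristem. OsMADS58 read 4.44, 4.67 and 5.19 at 2 mm and 7.02, 6.89 and 7.14 at 5-7 mm, and rose 4.75-fold. OsMADS3 read 3.65, 3.38 and 3.78 and then 4.51, 3.79 and 4.79, a rise of 0.76 ± 0.23 in which the second 5-7 mm array lay at the level of the highest 2 mm array. It did not pass without the second 2 mm array (0.66) or the third 5-7 mm array (0.54), and without the latter its difference from wild type passed (-0.96). The wild-type changes were 2.72 ± 0.22 and 1.502 ± 0.23, and the differences, -0.48 ± 0.31 and -0.74 ± 0.32, did not pass (adjusted p = 0.334 and 0.137). The D class gene OsMADS13 rose in wild type (1.88 ± 0.11) and gave a smaller change within dim readings in osmads1 (0.43 ± 0.11), with a difference of -1.46 ± 0.15 (adjusted p = 2.03e-05). OsMADS21, the other D class gene tested, was below the reporters' upper quartile at both lengths as well.

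The A class genes, of the APETALA1 and FRUITFULL type, gave different readings by probe set. OsMADS14 read 11.56, 11.85 and 11.74 at 2 mm and 10.72, 10.72 and 10.71 at 5-7 mm, all 3 longer panicles lower, with a change of -0.997 ± 0.079 (adjusted p = 8.73e-07). Other probe sets of the gene passed lower (-0.83 ± 0.14 and -0.37 ± 0.089) or did not pass (0.10 ± 0.20, adjusted p = 0.7). OsMADS18 fell (-0.55 ± 0.073), and OsMADS15 (0.067 ± 0.076, adjusted p = 0.484) and OsMADS20 (0.11 ± 0.17, adjusted p = 0.614) did not pass. Of the other probe sets of OsMADS15, 1 passed lower (-0.22 ± 0.067), 1 did not pass (0.070 ± 0.089) and the dimmest of them passed higher, by 1.503 ± 0.10 from 4.74 to 6.25. The MADS-box genes of the SVP type, which restrain brassinosteroid responses in rice, fell. OsMADS55 read 9.56, 8.72 and 9.17 at 2 mm and 7.64, 6.86 and 7.27 at 5-7 mm. OsMADS22 read 9.91, 9.34 and 9.60 and then 8.27, 7.72 and 8.08. Neither gene's arrays overlapped, and the levels fell 3.72-fold and 3.02-fold, while OsMADS47, the remaining gene of that type, fell with a change of -0.62 ± 0.20. The call of OsMADS47 was lost without any 1 of 4 osmads1 arrays, the first and the third of 2 mm (-0.45 and -0.54) and the second and the third of 5-7 mm (-0.55 and -0.59). The SOC1-type genes OsMADS56 and OsMADS50, regulators of flowering time, rose by 0.62 ± 0.092 and 0.35 ± 0.067. The fall of OsMADS22 was larger than in wild type (difference -1.07 ± 0.22, adjusted p = 0.00404), and for OsMADS55 the difference did not pass (-0.30 ± 0.36, adjusted p = 0.637).

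**Figure D2:**
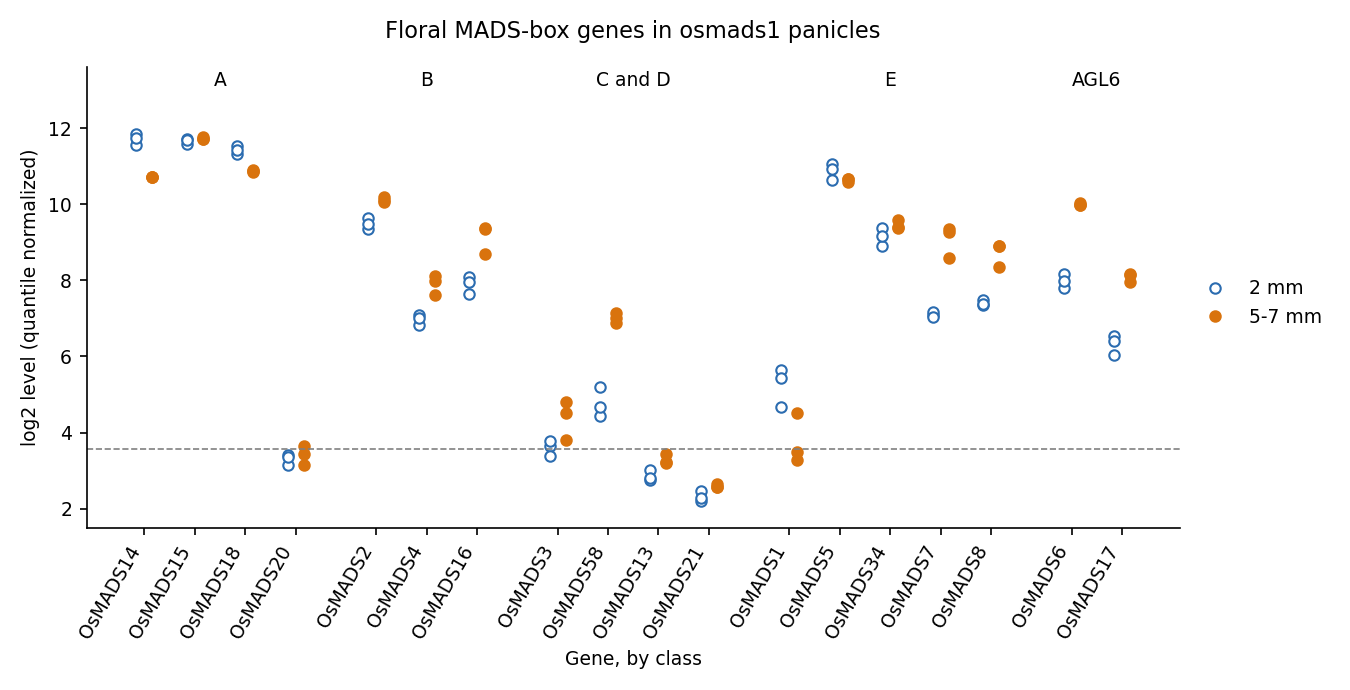
Log2 level of the 18 floral MADS-box genes in each osmads1 array, grouped by class, with 2 mm panicles as open circles and 5-7 mm panicles as filled circles (3 arrays each). The dashed line at 3.58 is the upper quartile of the reporter controls, and the filled circles lie higher for the B class and AGL6-type genes, OsMADS58, OsMADS7 and OsMADS8, and lower for OsMADS1 and OsMADS14.

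Regulators of lateral organs rose. Of 11 YABBY and polarity genes 7 were higher, 3 of them at least 2-fold, and the median relative to all genes was 0.44 (0.37 on the deposited values and 0.37 after median centring). OsYABBY1 read 9.41, 8.44 and 9.01 at 2 mm and 11.11, 10.82 and 11.16 at 5-7 mm. OsJAG, which promotes the growth of stamens and other lateral organs, read 5.05, 4.41 and 4.86 and then 6.51, 6.47 and 6.76. DL, the YABBY gene of carpel identity, read 6.90, 5.98 and 6.67 and then 7.89, 7.60 and 7.80. In all 3 genes the longer panicles were higher without overlap, by 4.22-fold, 3.5-fold and 2.38-fold. OsYABBY2 and the auxin response factor gene OsETTIN2 rose by 0.76 ± 0.11 and 0.64 ± 0.083. A second OsETTIN2 probe set, with a mean of 10.6, rose by less (0.19 ± 0.075, adjusted p = 0.0466). In wild type OsYABBY1, OsJAG and DL rose by 2.41 ± 0.21, 2.41 ± 0.15 and 1.41 ± 0.18, and 0 of the 3 differences between genotypes passed (adjusted p = 0.492, 0.0591 and 0.73). For OsJAG the difference passed without the second 2 mm or the third 5-7 mm array of osmads1 or the second 2 mm array of wild type (-0.79, -0.70 and -0.71).

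Of 17 meristem and branching genes 4 were higher and 8 lower, 2 and 3 at least 2-fold, with a median relative to all genes of -0.22 (-0.18 on the deposited values and -0.18 after median centring). OsSPL14, the SQUAMOSA promoter-binding factor of ideal plant architecture, read 11.58, 11.59 and 11.53 at 2 mm and 9.04, 9.13 and 8.90 at 5-7 mm. It fell 5.83-fold, more than in wild type (difference -0.95 ± 0.13, adjusted p = 0.000165). SPL16, which acts in grain width, moved the other way, from 5.57, 4.85 and 5.31 to 7.52, 7.12 and 7.48, and rose 4.38-fold, with a difference from wild type of -0.60 ± 0.22 that did not pass (adjusted p = 0.0697) but did without the second 2 mm array (-0.79). FZP, which ends branching and establishes spikelet identity, read 4.94, 5.40 and 5.28 and then 3.92, 4.41 and 3.87, and fell 2.2-fold. LAX1, a bHLH factor of axillary meristems, read 8.56, 8.83 and 8.70 at 2 mm and 9.71, 10.17 and 9.80 at 5-7 mm. It rose in osmads1 by 1.195 ± 0.14 while it fell in wild type (-1.68 ± 0.14), and the difference of 2.88 ± 0.20 passed (adjusted p = 6.92e-07). D14, the strigolactone receptor, and LOG, a cytokinin-activating enzyme of the shoot meristem, fell, with changes of -1.44 ± 0.13 and -0.88 ± 0.13. RFL did not pass in osmads1 (0.080 ± 0.12, adjusted p = 0.601) and fell in wild type (-1.24 ± 0.12), with a difference of 1.32 ± 0.17 (adjusted p = 0.000103). FON1, a receptor kinase that limits floral meristem size, did not pass (-0.20 ± 0.095, adjusted p = 0.102).

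Across 11 SPL genes 4 were higher and 5 lower, SPL7 falling 2.39-fold, and across 35 homeobox genes 14 were higher and 8 lower. The HD-Zip I genes OsHox24 and OsHox22 fell at least 7.38-fold and at least 4.36-fold, bounds because both were under the reporters' upper quartile at 5-7 mm, and OsHox14 fell 3.66-fold. OsHox24 read 5.57, 7.14 and 6.68 at 2 mm and 2.67, 2.82 and 2.66 at 5-7 mm, without overlap. In wild type it did not pass (0.50 ± 0.31, adjusted p = 0.206), and the difference was -4.24 ± 0.44 (adjusted p = 1.91e-05). OsHox8 rose 3.31-fold. Among 12 AP2 and growth-regulating factor genes 5 were higher and 3 lower, OsTOE1 falling 4.33-fold and OsGRF12 and OsGRF1 rising by 0.73 ± 0.073 and 0.71 ± 0.096. SHAT1, an AP2 gene that acts in the abscission layer of the spikelet, rose by 0.98 ± 0.11.

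DNA replication genes rose in osmads1 panicles, and this change differed from wild type. Of 30 replication genes 24 were higher and 1 lower at 5-7 mm, 14 of the higher ones at least 2-fold, and the median relative to all genes was 0.88 (0.89 on the deposited values and 0.89 after median centring). In wild type 6 were higher and 12 lower, against 30.2% and 27.1% of all genes. There 0 and 0 passed at least 2-fold, against 3.04% and 3.14% of all genes, and the median change was -0.14. The difference between genotypes passed upward in 22 genes and downward in 1, 17 of the upward ones at least 2-fold. Over all genes, 18.1% passed upward and 18.8% downward, and 3.22% and 5.48% did so at least 2-fold. On the deposited values 23 and after median centring 13 of the 30 genes rose at least 2-fold in osmads1.

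The MCM genes encode the helicase that unwinds DNA at replication origins. OsMCM6 read 7.83, 7.49 and 7.66 at 2 mm and 9.89, 9.98 and 9.93 at 5-7 mm. OsMCM7 read 8.61, 8.32 and 8.40 and then 10.53, 10.55 and 10.56. OsMCM4 read 8.74, 8.47 and 8.57 and then 10.43, 10.56 and 10.50. In each the longer osmads1 panicles were higher in every array, and the levels rose 4.84-fold, 4.3-fold and 3.74-fold. The same contrast in wild type gave 0.33 ± 0.10, -0.021 ± 0.10 and 0.015 ± 0.093, and the differences between genotypes were 1.95 ± 0.15, 2.13 ± 0.14 and 1.89 ± 0.13 (adjusted p = 1.38e-06, 5.56e-07 and 6.56e-07). The other subunits of the ring, OsMCM5, OsMCM3 and OsMCM2, rose by 1.63 ± 0.13, 1.57 ± 0.12 and 1.37 ± 0.088. OsMCM8, a paralog outside the ring, did not pass (-0.068 ± 0.13, adjusted p = 0.679).

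Genes of origin recognition and single-strand binding rose in part. OsORC3, a subunit of the origin recognition complex, read 5.82, 5.52 and 5.86 at 2 mm and 7.49, 7.56 and 7.68 at 5-7 mm. The arrays did not overlap, the rise was 3.58-fold, and in wild type the gene fell (-0.42 ± 0.13, adjusted p = 0.0166). OsORC4, of the same complex, rose by 1.75 ± 0.098. OsRPA32, a subunit of the single-strand binding protein, read 8.68, 8.32 and 8.54 and then 10.56, 10.46 and 10.53 and rose 4-fold, with a difference from wild type of 1.90 ± 0.14 (adjusted p = 1.40e-06). OsPCNA, the sliding clamp, rose by 0.91 ± 0.11. OsRFC1, the large subunit of the clamp loader, was the replication gene that fell (-0.28 ± 0.066). OsORC2 (-0.11 ± 0.066, adjusted p = 0.185) and OsRPA70a (0.024 ± 0.064, adjusted p = 0.777) did not pass.

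**Figure D3:**
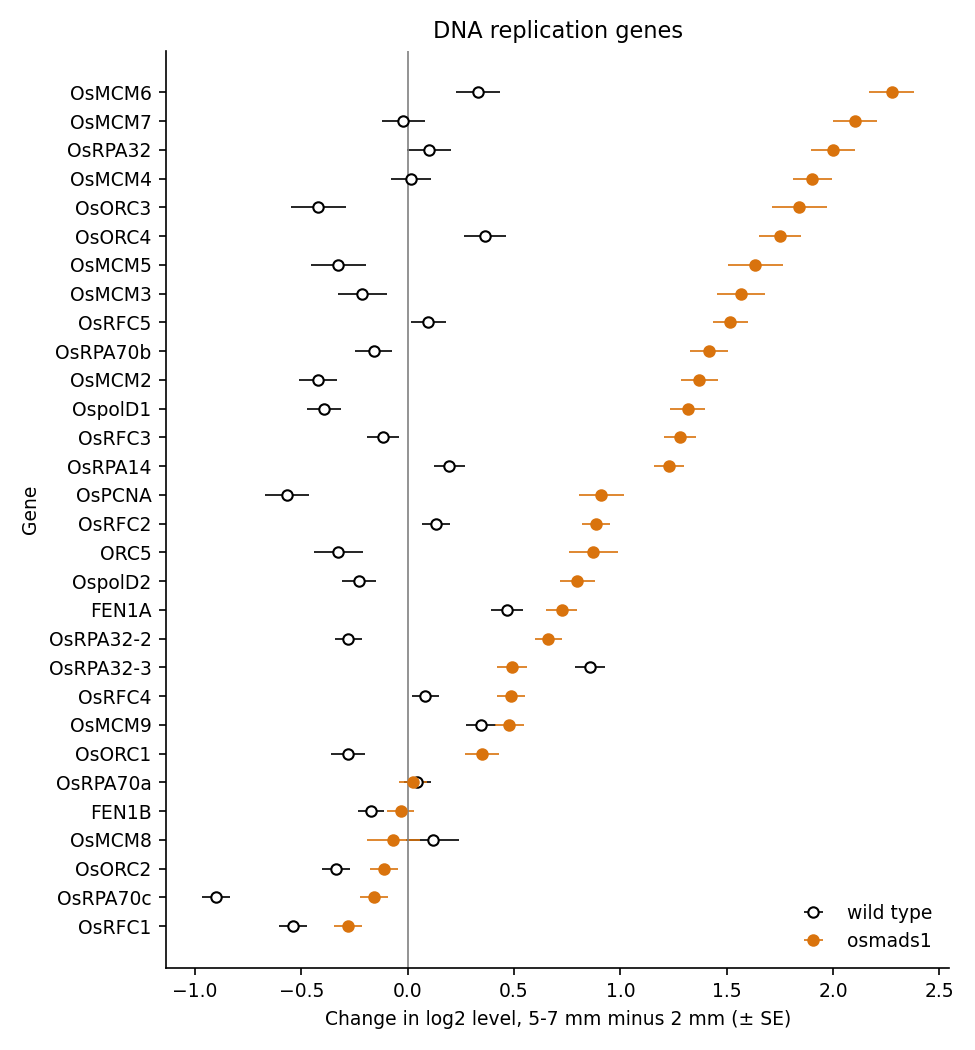
Change in log2 level from 2 mm to 5-7 mm of the 30 replication genes in osmads1 (filled circles) and wild type (open circles), with standard errors of the fit as bars. In osmads1 most genes lie to the right of 0, up to 2.27 for OsMCM6, while the wild-type values lie between -0.90 and 0.86.

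All 6 histone genes tested were higher at 5-7 mm in osmads1. Their median relative to all genes was 0.60 (0.45 on the deposited values and 0.45 after median centring). The difference from wild type passed upward in 6, against 18.1% of all genes. H2B.10 and H2B.7, genes of core histone H2B, rose by 1.27 ± 0.069 and 0.98 ± 0.065, and CenH3, the centromeric histone, by 0.38 ± 0.061. Of 85 cyclin, kinase, kinesin and other cell cycle genes 42 were higher and 18 lower, 6 and 2 at least 2-fold, with a median relative to all genes of 0.18 (0.18 on the deposited values and 0.18 after median centring). OsRBR1, the retinoblastoma-related repressor, rose by 1.24 ± 0.11 against 0.25 ± 0.11 in wild type (difference 0.99 ± 0.15, adjusted p = 0.000447). A second, dimmer OsRBR1 probe set, with a mean of 3.53 over the 12 arrays, rose by 0.89 ± 0.20 in osmads1. Its difference from wild type did not pass (-0.29, adjusted p = 0.551). The kinesin genes KIN14F and KIN5C rose by 1.48 ± 0.083 and 1.33 ± 0.066, and KRP1, an inhibitor of cyclin-dependent kinases, rose at least 2.66-fold from a 2 mm level under the reporters' upper quartile. EL2, an inhibitor of another type, read 9.996, 10.43 and 10.20 at 2 mm and 7.45, 7.02 and 7.23 at 5-7 mm. It fell 7.88-fold in osmads1 without overlap and rose in wild type (0.62 ± 0.13), with a difference of -3.60 ± 0.18 (adjusted p = 4.35e-08). SMR1, an inhibitor of the same type, fell 2.43-fold with a difference from wild type of -1.85 ± 0.13. The cyclin gene CYCB1-1 did not pass (0.11 ± 0.065, adjusted p = 0.169).

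Meiosis genes rose in part. Of 18 genes 11 were higher and 1 lower, 2 of the higher ones at least 2-fold, with a median relative to all genes of 0.35 (0.34 on the deposited values and 0.34 after median centring). OsMEL1, the Argonaute protein of germ cells before meiosis, read 8.73, 8.13 and 8.44 at 2 mm and 10.37, 10.45 and 10.55 at 5-7 mm. The longer panicles were higher in every array, by 4.08-fold, and it rose by 2.35 ± 0.12 in wild type (difference -0.32 ± 0.17, adjusted p = 0.228, which passed at -0.47 without the second 2 mm array of osmads1). CRC1, a component of the central axis of meiotic chromosomes, read 6.39, 6.0 and 6.17 and then 7.38, 7.31 and 7.44. It rose 2.29-fold in osmads1 and did not pass in wild type (-0.16 ± 0.096, adjusted p = 0.179), a difference of 1.36 ± 0.14 (adjusted p = 1.43e-05). PAIR1 and PAIR2, which act in homologous pairing, rose by 0.70 ± 0.095 and 0.73 ± 0.064. OsDMC1, a meiotic recombinase with a close paralog in rice, did not pass in osmads1 (-0.30 ± 0.19, adjusted p = 0.219) and rose in wild type (1.25 ± 0.19), with a difference of -1.55 ± 0.27 (adjusted p = 0.00115).

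Among genes of the tapetum, the nurse tissue of pollen, and of the pollen wall, more fell than rose. Of 16 anther genes 3 were higher, 10 lower and 3 did not pass. Of the lower ones 7 fell at least 2-fold, and no gene of the group changed by more than 0.83 upward. The genes named below are mostly from the lower ones. The median relative to all genes was -0.68 (-0.72 on the deposited values and -0.72 after median centring). OsC4, a lipid transfer protein gene of the tapetum, read 8.43, 9.36 and 9.01 at 2 mm and 4.04, 4.24 and 3.69 at 5-7 mm. It fell 30.7-fold without overlap. OsC6, of the same kind, read 6.70, 6.84 and 6.58 and then 4.09, 4.16 and 3.98 and fell 6.19-fold. RAFTIN1, a tapetal protein of the pollen coat, read 5.70, 5.67 and 6.18 and then 4.29, 4.11 and 4.10 and fell 3.22-fold. The shorter osmads1 panicles were thus the high ones in all 3 genes. CYP703A3, a hydroxylase for pollen wall precursors, and RTS, another tapetum gene, fell at least 2.75-fold and at least 2.35-fold, both to levels under the reporters' upper quartile. The same contrast in wild type gave -1.19 ± 0.20, 0.016 ± 0.081, 0.052 ± 0.13, 0.33 ± 0.14 and -0.67 ± 0.15 for these 5 genes, and the differences from wild type were -3.75, -2.65, -1.74, -1.97 and -1.12, all past the test. Of the tapetum regulators, TDR fell at least 1.48-fold, and TIP2 did not pass in osmads1 (0.39 ± 0.18, adjusted p = 0.0903) and rose in wild type (2.16 ± 0.18), with a difference of -1.77 ± 0.26. Without the first 5-7 mm array of osmads1 the TIP2 change passed (0.60). EAT1 and PTC1 were below the reporters' upper quartile at both lengths. On the deposited values 3 of the 16 genes fell at least 2-fold.

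Genes of abscisic acid and dehydration fell in osmads1 on the normalized values. Of 35 genes 25 were lower and 6 higher, 12 and 1 at least 2-fold, and the median relative to all genes was -0.63 (-0.52 on the deposited values and -0.52 after median centring). On the deposited values 12 were lower and 14 higher, 6 and 4 at least 2-fold. In wild type 10 were lower and 14 higher, against 27.1% and 30.2% of all genes. The difference between genotypes passed downward in 24 and upward in 6, against 18.8% and 18.1% of all genes. The dehydrin gene RAB16B read 8.80, 10.02 and 9.63 at 2 mm and 3.39, 3.23 and 3.45 at 5-7 mm of osmads1. RAB21, another dehydrin gene, read 9.17, 11.22 and 10.57 and then 5.36, 5.35 and 5.44. Both were lower in every longer panicle, and fell at least 59.9-fold and 30.6-fold. The same contrast in wild type did not pass for either gene (-0.75 ± 0.30 and -0.080 ± 0.36), and the differences were -5.38 ± 0.43 and -4.86 ± 0.51 (adjusted p = 2.19e-06 and 2.05e-05). Wild-type levels lay between those of both osmads1 lengths, with RAB16B at 6.27, 7.37 and 6.93 in the 2 mm and 6.49, 5.94 and 5.89 in the 5-7 mm arrays.

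Clade A protein phosphatases 2C restrain abscisic acid signalling and are themselves induced by the hormone. OsPP2C30 read 9.97, 10.96 and 10.53 at 2 mm and 7.17, 7.16 and 6.96 at 5-7 mm, and fell 10.5-fold. OsPP2C09 read 9.93, 10.33 and 10.11 and then 7.60, 7.39 and 7.59, and fell 6.06-fold. OsPP2C68 read 4.90, 6.19 and 5.71 and then 3.13, 3.12 and 2.82, and fell at least 4.06-fold. The shorter panicles were the high ones in all 3 genes, with no overlap. The kinase gene OsSAPK9, which acts downstream of these phosphatases, went the other way, from 6.39, 6.40 and 6.35 to 9.99, 9.79 and 9.91. It rose 11.4-fold, with a difference from wild type of 2.26 ± 0.11 (adjusted p = 2.83e-08). EM, a late embryogenesis abundant gene, fell 3.77-fold in osmads1 and by more in wild type (-5.30 ± 0.24), with a difference of 3.38 ± 0.34 (adjusted p = 1.46e-05).

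Stress-related NAC transcription factor genes fell in part. Of 8 NAC genes 4 were lower and 0 higher, all 4 at least 2-fold, on the normalized, deposited and median-centred values alike. OsNAC6 read 8.41, 9.05 and 8.73 at 2 mm and 4.06, 4.09 and 4.15 at 5-7 mm. OsNAC4 read 10.17, 10.47 and 10.30 and then 6.92, 6.86 and 6.82. The shorter panicles stood above the longer ones in every array, and the falls were 24.8-fold and 10.9-fold, followed by 4.17-fold for OsNAC5 and 3.46-fold for OsNAC3. Dimmer probe sets gave smaller values, -0.020 ± 0.11 and -0.84 ± 0.14 for OsNAC6 and -0.20 ± 0.17 and -0.60 ± 0.13 for OsNAC5. In wild type OsNAC3 rose (0.94 ± 0.12) and the values of the other 3 were 0.075 ± 0.14, -0.032 ± 0.15 and 0.15 ± 0.080. All 4 differences between genotypes passed, from -4.71 for OsNAC6 to -2.21 for OsNAC5.

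OsWRKY71, a repressor of gibberellin signalling in aleurone cells, was the 1 of 6 WRKY genes that passed. It read 6.57, 6.93 and 6.85 at 2 mm and 3.74, 3.81 and 3.79 at 5-7 mm, fell 8.01-fold, and rose in wild type (1.81 ± 0.29), a difference of -4.81 ± 0.40 (adjusted p = 3.26e-06). A second OsWRKY71 probe set, dimmer at a mean of 4.48, fell by less (-0.30 ± 0.098). Of 50 CCCH zinc finger genes 18 were lower and 15 higher. OsC3H37 read 10.55, 10.98 and 10.77 and then 6.76, 6.81 and 6.95, fell 15.2-fold without overlap and rose in wild type (1.14 ± 0.12). OsC3H33 and OsC3H2 fell 4.98-fold and 4.62-fold. OsC3H40 rose by 0.57 ± 0.098 in osmads1 (adjusted p = 0.000435) and by 5.44 ± 0.098 in wild type, a difference of -4.87 ± 0.14.

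**Figure D4:**
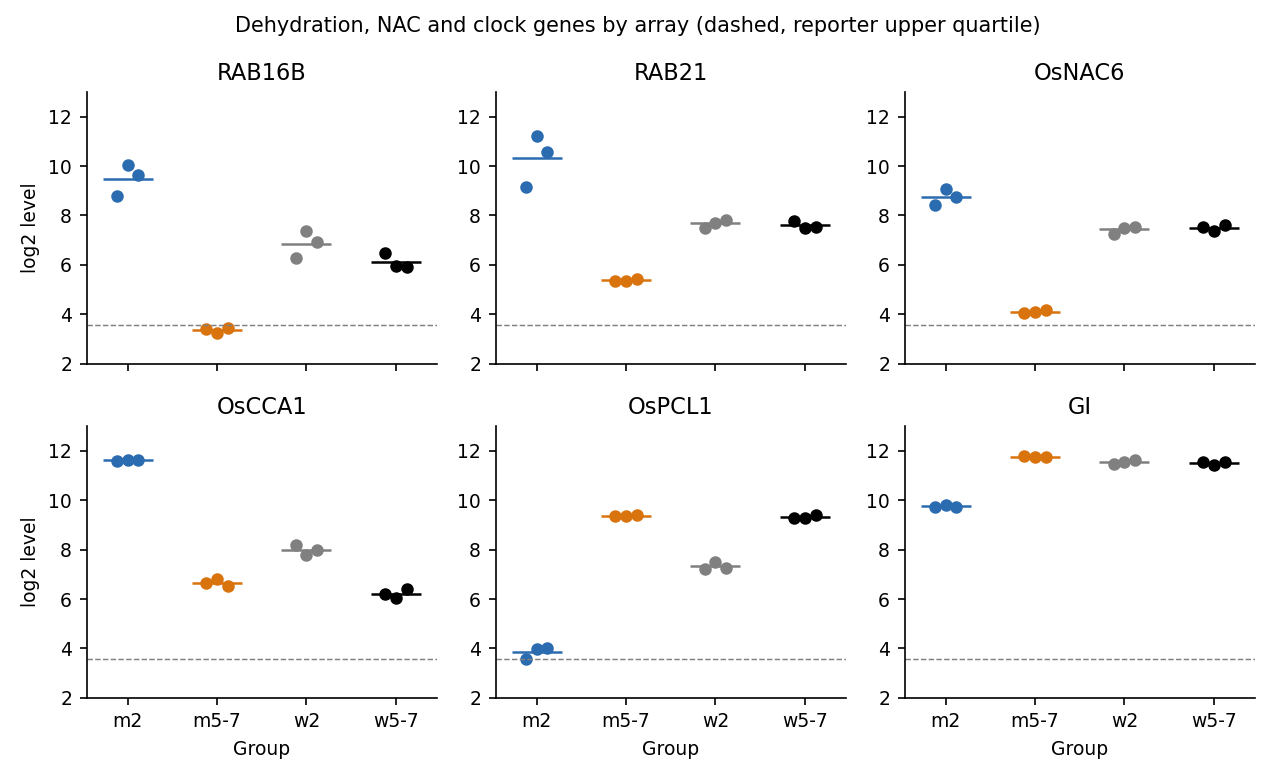
Log2 level of 6 genes in each of the 12 arrays, by group (m2 and m5-7, osmads1 at 2 mm and 5-7 mm, w2 and w5-7, wild type), with the group mean as a bar. RAB16B, RAB21, OsNAC6 and OsCCA1 are highest in the 3 osmads1 2 mm arrays, and OsPCL1 and GI are lowest there.

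Clock genes changed in both directions. OsCCA1, the morning-phased repressor, read 11.60, 11.65 and 11.63 at 2 mm and 6.66, 6.80 and 6.55 at 5-7 mm of osmads1. It fell 31-fold, more than in wild type (difference -3.17 ± 0.16, adjusted p = 5.31e-08), while a second, dimmer probe set of OsCCA1, with a mean of 3.11 over the 12 arrays, gave a change of 0.63 ± 0.10. OsPCL1, an evening-phased MYB gene, read 3.57, 3.98 and 4.0 and then 9.38, 9.35 and 9.40. Its rise of 46.1-fold was the largest among the genes described here, with a difference from wild type of 3.54 ± 0.16 (adjusted p = 1.60e-08). GI, a clock and flowering time gene, read 9.71, 9.82 and 9.73 and then 11.78, 11.74 and 11.76. It rose 4.02-fold and did not pass in wild type (-0.030 ± 0.067), where the arrays read 11.45, 11.54 and 11.62 at 2 mm and 11.54, 11.45 and 11.53 at 5-7 mm (difference 2.04 ± 0.095, adjusted p = 2.09e-08). The osmads1 2 mm arrays were thus the low ones among all 12. OsPRR1 rose 3.9-fold and OsPRR95 fell 2.33-fold, and OsPRR73 and OsPRR37 did not pass (adjusted p = 0.956 and 0.0699). The labels give no hour of sampling, and time of day cannot be told apart from panicle length. Nor can it be told apart from the genotype differences of these genes, since the hour may differ between any of the groups.

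Heat shock genes were lower in 21 of 43 cases, 9 of them at least 2-fold, and higher in 8, with a median relative to all genes of -0.20 (-0.14 on the deposited values and -0.14 after median centring). The heat stress factor HSFC2A read 9.34, 9.82 and 9.65 at 2 mm and 3.48, 3.37 and 3.48 at 5-7 mm, a fall of at least 65.2-fold without overlap. It fell in wild type as well (-2.48 ± 0.11), by less (difference -3.68 ± 0.15, adjusted p = 8.24e-09). HSFB2C fell 5.16-fold in osmads1 and by more in wild type (-3.64 ± 0.12, difference 1.27 ± 0.18). HSFB2A, of the same class, fell 2.98-fold, with a second probe set at -0.27 ± 0.12 that did not pass, and the chaperone genes CLPB1 and HSP17.9A fell 3.93-fold and 3.3-fold. HSP17.4 did not pass in osmads1 (0.40 ± 0.27, adjusted p = 0.23) and fell in wild type (-1.96 ± 0.27), with a difference of 2.36 ± 0.38.

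Genes of chlorophyll and the thylakoid split. Of 28 photosynthesis genes 12 were lower and 6 higher, 7 and 4 at least 2-fold, with a median of -0.014. CHLP, an enzyme that makes the phytol tail of chlorophyll, read 9.14, 9.25 and 9.16 at 2 mm and 6.41, 6.16 and 6.33 at 5-7 mm. OsPSAG, a photosystem I subunit, read 8.02, 8.33 and 8.21 and then 5.80, 5.94 and 5.85. Both fell without overlap, 7.37-fold and 5-fold, though a second probe set of OsPSAG did not pass (0.36 ± 0.15, adjusted p = 0.0633), and CAO, which makes chlorophyll b, fell 3.85-fold. The chlorophyll-binding protein genes went both ways, RCABP89 falling 3.36-fold and RCABP69 rising 2.97-fold. The gene petC, for the Rieske protein of the cytochrome b6f complex, fell 2.89-fold. RBCS-A, a Rubisco small subunit gene, was under the reporters' upper quartile at both lengths, and rca, the activase, had a main probe set that did not pass (0.31 ± 0.14, adjusted p = 0.0788) except without the second 5-7 mm array (0.49), and of its 3 other probe sets 2 passed higher (0.71 ± 0.14 and 0.59 ± 0.19) and 1 did not pass (-0.33 ± 0.21). The differences from wild type were -1.73 ± 0.17, -1.36 ± 0.14 and -1.46 ± 0.17 for CHLP, OsPSAG and CAO and 2.32 ± 0.49 for RCABP69, all past the test.

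Hormone genes other than those of abscisic acid showed smaller shifts. Of 69 auxin genes 31 were higher and 17 lower, 5 and 3 at least 2-fold, with a median relative to all genes of 0.16 (0.20 on the deposited values and 0.20 after median centring). IAA2, a gene of the Aux/IAA repressors, read 8.65, 8.20 and 8.49 at 2 mm and 9.998, 10.14 and 10.07 at 5-7 mm, without overlap, and its rise of 1.62 ± 0.12 differed from wild type by 1.86 ± 0.17 (adjusted p = 5.89e-06). IAA30, of the same family, and the auxin response factor genes ARF14 and ARF10 rose by 1.42 ± 0.14, 1.33 ± 0.096 and 1.29 ± 0.078, and OsGH3-4, of the family that conjugates auxin, fell 2.47-fold. Of 36 jasmonate genes 19 were lower and 6 higher, 6 of the lower ones at least 2-fold, with a median relative to all genes of -0.34 (-0.35 on the deposited values and -0.35 after median centring). The JAZ genes encode repressors of jasmonate signalling, and JAZ13, JAZ12, JAZ10 and JAZ9 fell 5.89-fold, 4.85-fold, 2.71-fold and at least 1.62-fold. Of 19 brassinosteroid genes 12 were higher and 2 lower, GSK4, a kinase gene of that pathway, rising by 0.90 ± 0.066. Of 33 cytokinin genes 12 were higher and 8 lower, OsCKX5, a cytokinin oxidase gene, falling 3.73-fold. Of 14 gibberellin genes 3 were higher and 5 lower, SLRL1, a DELLA-like repressor, falling 1.91-fold.

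Aquaporin and carbohydrate genes were lower more often than higher on the normalized values. Of 25 aquaporin genes 11 were lower, 6 of them at least 2-fold, and 4 higher, a number that was 2 without the first 5-7 mm array of osmads1. The median relative to all genes was -0.28 (-0.33 on the deposited values and -0.33 after median centring). OsNIP4;1, an aquaporin of the NOD26-like type, read 6.43, 7.05 and 6.80 at 2 mm and 2.27, 2.38 and 2.20 at 5-7 mm, and fell at least 9.08-fold. The plasma membrane aquaporin genes OsPIP2;2 and OsPIP1;2 fell 7.43-fold and 2.71-fold. Of 53 sugar transport and starch genes 18 were lower, a share near the 29.8% of all genes, and 5 higher, against 32.4%. Of the lower ones 6 were so at least 2-fold, and 30 genes did not pass. The median relative to all genes was -0.092 (-0.18 on the deposited values and -0.18 after median centring). AMY1.3, an alpha-amylase gene, read 7.03, 8.62 and 7.95 and then 2.84, 3.18 and 3.07 and fell at least 19.5-fold, with a second, dimmer probe set at -0.71 ± 0.12. OsSWEET4, a sugar transporter gene, OsSUS4, a sucrose synthase gene, and OsTPP9, of trehalose metabolism, fell 3.13-fold, 2.81-fold and 2.88-fold.

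Wall genes showed no common direction that held on both the normalized and the deposited values. Of 70 cellulose, COBRA-like and lignin genes 18 were lower and 13 higher, with a median relative to all genes of -0.040 (0.020 on the deposited values and 0.020 after median centring). BC1L9, a COBRA-like gene, read 6.59, 7.47 and 7.06 at 2 mm and 3.40, 3.69 and 3.56 at 5-7 mm and fell at least 11-fold. A second, dimmer BC1L9 probe set fell by less (-1.31 ± 0.22). Of 30 wall-loosening genes 9 were higher and 11 lower, EXLA1, EXPB11 and EXPA29, of the expansin family, falling 4.92-fold, 3.43-fold and 2.79-fold and EXPA6 rising 2.15-fold. In AMY1.3, OsNIP4;1 and BC1L9 the 3 shorter panicles were high and the means of the longer ones were under the reporters' upper quartile. The same contrast in wild type gave -0.61 ± 0.58, -1.28 ± 0.13 and 0.84 ± 0.35, and the differences were -4.22, -3.20 and -4.33, all past the test. Of the remaining large single changes, SAT1 fell 31.2-fold, from 9.51, 10.31 and 9.93 to 4.72, 5.16 and 4.97. A second, dimmer SAT1 probe set fell by less (-2.57 ± 0.20). OsHAK4, of a family of potassium transporters, and ADIPOR1 rose at least 2.17-fold and 4.41-fold, and a gene named OsZIP1, a name that another gene of the reference table shares, rose 5.93-fold. Ribosomal protein genes gave a median of 0.10 over 23 genes, 0 higher and 0 lower at 2-fold.

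Set beside wild type, the changes of osmads1 correlated with those of wild type at 0.378 (Pearson, across 17905 genes, which share the joint normalization of the 12 arrays and the length difference of the control probe sets). The B class genes, OsMADS58, OsMADS3, OsMADS7, OsMADS8, OsYABBY1, OsJAG, DL, SPL16 and OsMEL1 rose in both genotypes, and with all arrays their differences did not pass. Replication genes rose in osmads1 beside a wild-type median of -0.14, and the median changes of NAC and abscisic acid genes, -1.03 and -0.61 in osmads1, stood beside 0.069 and 0.18 in wild type. A pair of the largest differences came from a fall in wild type. OsSWEET15, a sugar transporter gene, gave -0.065 ± 0.17 in osmads1 and -3.64 ± 0.17 in wild type, and the gene cob gave 0.39 ± 0.19 and -3.28 ± 0.19, with differences of 3.58 ± 0.24 and 3.67 ± 0.27. Without the third 5-7 mm array of osmads1 the osmads1 change of cob passed (0.59).

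**Figure D5:**
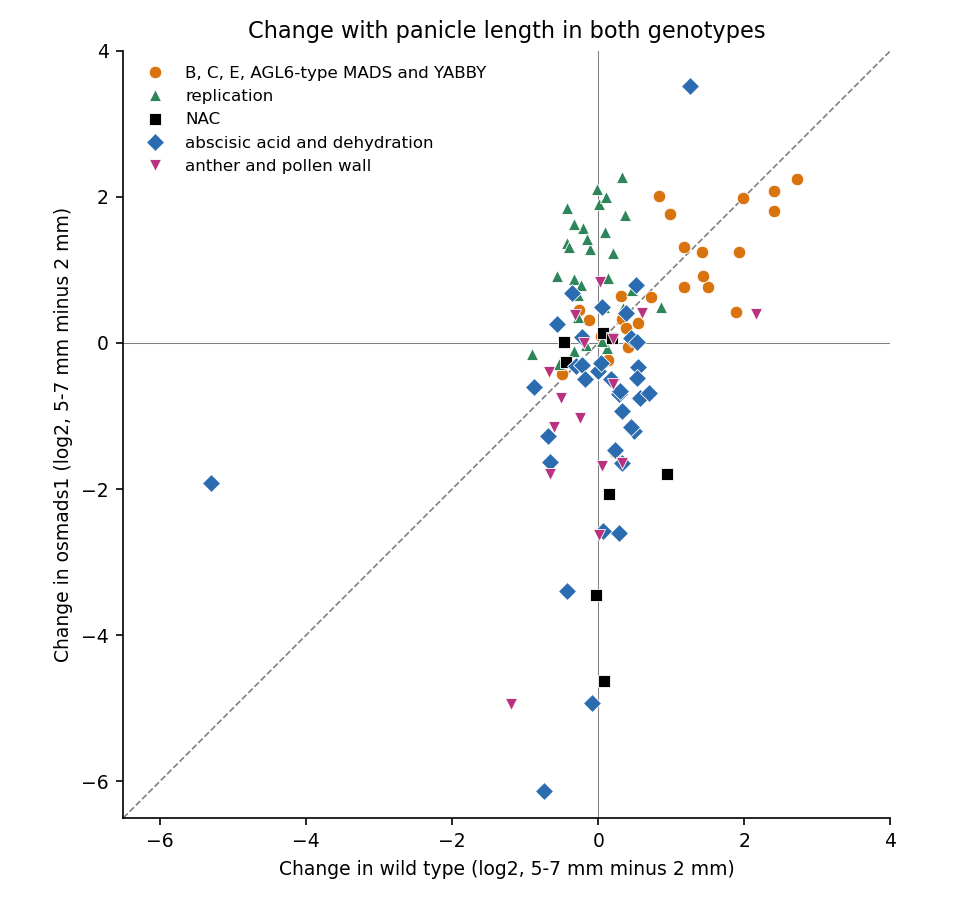
Change in log2 level from 2 mm to 5-7 mm in wild type (x axis) and osmads1 (y axis) for the members of 5 gene groups, 1 symbol a gene, with the line of equal change dashed. Most MADS and YABBY genes lie near the line, most replication genes above it, and the falling NAC, abscisic acid and anther genes below it.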

How the data were processed

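Total RNA from panicles was labelled with biotin and hybridised to Affymetrix rice arrays, 3 a group. The deposited values are log2 probe set levels per array, and the submitters' processing notes name RMA and Partek, with versions not given in the sources used here. How arrays of different lengths were normalized is not given in the sources used here, and the deposited medians differ between lengths.

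The 57381 probe sets of the 12 arrays were quantile normalized together, 187 control probe sets were left out, and the 57194 others were fitted in limma 3.58.1 (R 4.3.3) with 1 mean per group over all 12 arrays, moderated variances and Benjamini-Hochberg adjustment over all probe sets at 0.05. Beside the length change in osmads1, the fit gave that in wild type and the difference between the genotypes. Each adjusted p in the text is from limma. Probe sets were named through the platform annotation and a RefSeq gene table, 22436 with 1 symbol, 95 with several and 34663 with none, and the probe set with the highest mean stood for each of 17905 genes. Probe sets of close paralogs, such as the dehydrin genes, may share signal. The script was tested on simulated data.

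Named were OsMADS1, the floral MADS-box genes, the 12 largest rises and falls, the 8 largest genotype differences each way, and up to 6 called members of a gene group beside members that did not pass. OsMCM5, OsMCM3, OsMCM2, OsPCNA, OsRFC1, CenH3 and EAT1 were named after their values were seen. The members and gene lists were chosen with earlier results of these data known. Replicates are biological per the labels, which do not say whether they were separate plants. Alternatives covered the scale, dim probe sets, variance model, replicate block, threshold and each array left out. No sequence or coordinate is given.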

Additional observations from a re-analysis of the deposited data

Results flagged for a closer look

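Of the 150 genes named above, 12 passed in opposite directions in osmads1 and wild type, and the difference itself passed in limma for each. The 150 genes were named in part for large changes or large genotype differences. The difference passed in 105 of them, against 18.1% upward and 18.8% downward of all genes. The count of opposite calls therefore reflects that choice, and the share over all genes is not given here. The difference of the length change, osmads1 minus wild type on the log2 scale, was 2.88 for LAX1, 1.79 for OsMCM2, 2.26 for OsORC3 and 1.48 for OsPCNA, which rose in osmads1 and fell in wild type. It was -3.60 for EL2, -1.85 for SMR1, -3.16 for OsC3H2, -5.07 for OsC3H37, -2.73 for OsNAC3, -2.89 for OsPP2C09, -1.96 for OsTPP9 and -4.81 for OsWRKY71, which fell in osmads1 and rose in wild type. The size of the difference varied with the probe set. A second probe set gave -7.66 for OsC3H2 (mean 9.21) and a second, dimmer one gave -0.63 for OsWRKY71 (mean 4.48).

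Among genes without opposite calls, the difference was also past the test for OsPCL1 (3.54), GI (2.04), OsMCM7 (2.13), OsSWEET15 (3.58) and cob (3.67) on the higher side. On the lower side it was past the test for RAB16B (-5.38), OsCCA1 (-3.17), OsNAC6 (-4.71), OsMADS1 (-1.71) and OsMADS13 (-1.46). Of the 12 arrays, the 3 of osmads1 at 2 mm were the highest for RAB16B, OsNAC6 and OsCCA1 and the lowest for OsPCL1 and GI.

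Outside the rice gene probe sets, 1 reporter control changed by -4.36 between the osmads1 lengths and was high in the 3 osmads1 2 mm arrays alone. The ribosomal RNA control with the largest change gave -6.13 in osmads1. Whether plant material, sampling or array processing moves with these readings was not tested.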

How the results depend on the processing

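The log2 changes of the 150 named genes in osmads1 were recomputed under each alternative, which gave 3913 values. Of these 3828 stayed on their side of the threshold, 18 of them with a turned sign in genes that passed in neither, 32 kept the direction and lost the call, 34 gained it and 19 turned with a call in at least 1 of both. Of 3573 values of the genotype differences, 3446 stayed, 36 of them with a turned sign and no call, 57 lost the call, 70 gained it and 0 turned with a call. On the deposited values FON1 (0.46), OsDMC1 (0.56), OsMADS5 (0.33), OsMADS18 (0.012), OsMADS47 (0.061), OsMCM8 (0.66), OsORC2 (0.54), OsPRR73 (0.59), OsRFC1 (0.33) and OsSWEET15 (0.62) turned upward. After median centring OsMADS13 (-0.027), OsMADS15 (-0.25), OsMADS21 (-0.55), OsRPA70a (-0.20) and RBCS-A (-0.68) turned downward, and other probe sets of OsCCA1 (0.63), OsMADS14 (0.10), OsMADS15 (-0.22) and OsPSAG (0.36) opposed the main one. Dimmer probe sets of LOG (-0.073), OsYABBY1 (0.31) and OsPIP2;2 (-0.32) gave smaller changes in the same direction. The deposited values gave 45509 called probe sets in osmads1, 42388 higher and 3121 lower, 12821 and 615 of them at least 2-fold, and 45724 in wild type. Median centring gave 9448 higher and 28818 lower, 818 and 4643 at least 2-fold. Testing fewer features lowered the counts by construction. Probe sets above the median level gave 19039 calls in osmads1, 10357 higher and 8682 lower, and 18563 in wild type. With 1 probe set per gene there were 11918 in osmads1, 6204 higher and 5714 lower, 579 and 1013 at least 2-fold, 11107 in wild type and 8215 for the genotype difference, which at an adjusted p under 0.01 had 8188. The reporter controls called, 18 of 64 in the main setting, were 30 on the deposited values, 51 after centring and 9 at 0.01. Leaving out each array in turn gave 26608 to 30108 calls in osmads1 and 11212 to 12407 for the genotype difference. With the replicate block 29460 were called in osmads1, 28637 in wild type and 12397 for the difference. Deviations of same-numbered osmads1 arrays correlated at -0.020, 0.097 and 0.073 and those of wild-type arrays at 0.0069 to 0.14. With 3 arrays a group these values cannot settle whether the replicate numbers pair the samples. The cause of the remaining shifts was not tested. Levels near the reporter controls, at or under 3.58, limit what can be read of dim genes such as OsMADS13, OsMADS21, EAT1 and PTC1, and with 3 arrays a group small gene groups rest on few calls.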
